A study of Homo sapiens with 20 samples.

Results

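The genes described here are the 5 subunits of the transcription factor NF-kB (NFKB1, NFKB2, RELA, RELB and REL) and 5 feedback genes of the pathway, most of which restrain it (NFKBIA, NFKBIE, NFKBIZ, TNFAIP3 and BIRC3). They were taken by symbol from the table of 60656 rows, in which each of the 10 had 1 row, and all 10 were among the 24790 rows that passed the filter on low counts. RNA was sequenced in 20 libraries whose source is SW1990, a human line of pancreatic cancer cells, and the series title speaks of a mouse model of this cancer. The 4 treatments of 5 libraries each are named after principles of traditional Chinese medicine and are given short names here. Heat-clearing stands for clearing heat and removing dampness, spleen-strengthening also regulates the flowing of qi, yin-nourishing is meant to eliminate heat, and blood-activating also removes stasis. All groups share the cell line and the disease. No library is labelled untreated, so every comparison sets one treatment against another. The sources used here give no herb, dose, duration or mouse strain, and do not say whether a replicate is a mouse, a tumour or a culture, so a p-value here covers only the spread between libraries, which may be technical. Totals ran from 81.7 to 135 M counts (M, mega), and levels are given as TMM-normalised CPM (counts per M counts, scaled between libraries by the trimmed mean of M-values).

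NF-kB proteins act as pairs of subunits that share a DNA-binding domain. In resting cells inhibitors of the IkB family hold the pairs in the cytoplasm, and signals from receptors for tumour necrosis factor, interleukin-1 and bacterial products lead to the breakdown of these inhibitors and to entry of the pairs into the nucleus. Several inhibitors are themselves switched on by NF-kB, which closes a negative feedback loop, and in pancreatic cancer the pathway is often active and is known for its link to inflammation and cell survival.

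Promoter sequence is shown first, since feedback of this kind acts through sites in the DNA. Of the 10 genes, 8 have promoter entries in the RefSeq table (build GRCh38.p14), which hold 13 promoters in all. A core of the NF-kB site, written as GGGNNTTTC and searched on both strands of the 250 bases before each start, occurred in 7 of these 8 genes, with 12 matches. Of all 35116 promoters listed there 4.16% held it, and 5.05% of 27305 gene symbols had it in some promoter. The 7 genes were 3 subunits and 4 feedback genes, and RELA had no match. The match nearest to the start is printed for each of the 7, 5′ to 3′ on the gene's strand, with the motif in capitals. In the lines of NFKBIA, TNFAIP3, BIRC3 and REL the capitals hold it in reverse complement, as GAAANNCCC.
NFKBIA: ccgccccagaGAAATCCCCagccagcgtt
TNFAIP3: aagtcccgtgGAAATCCCCgggcctacaa
BIRC3: ttgggtcatgGAAATCCCCgagtgggttt
NFKBIZ: tttttggtctGGGAATTTCcagtgtgcag
NFKB1: cgacgtcagtGGGAATTTCcagccaggaa
NFKB2: tggtattttcGGGACTTTCctaagctgct
REL: tcagccgcggGAAATTCCCctcccgccag
The NFKBIA stretch lies at chr14:35404781-35404809 on the minus strand, with the motif 50 to 42 bases before the start, and NFKBIA had 2 further matches. The other 6 lie on the plus strand. They are TNFAIP3 at chr6:137867195-137867223, BIRC3 at chr11:102317276-102317304, NFKBIZ at chr3:101827757-101827785, NFKB1 at chr4:102501300-102501328, NFKB2 at chr10:102395674-102395702 and REL at chr2:60881519-60881547. NFKBIA, TNFAIP3 and BIRC3 share the same 9 letters. A match is a run of letters in this window and does not show that a factor binds there.

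A set of 5 libraries stood apart from the rest by RN7SK, a small nuclear RNA that restrains transcription elongation. RN7SK took 5.25 to 7.38% of the counts in heat-clearing replicates 01 and 02 and in blood-activating replicates 01, 08 and 09, against 1.57 to 3.02% in the other 15 libraries. They are called the RN7SK-high libraries. The labels give no such split, and the spleen-strengthening and yin-nourishing treatments held none. The main comparisons between treatments are given with all libraries and, beside that, without these 5. No 2 libraries held identical counts. The markers of tumour epithelium, such as KRT8 and KRT19, summed to 2301 to 4102 CPM over the 20 libraries and all 9 were detected. Markers of other cell types were lower in sum, with 7.92 to 23.5 CPM for endothelium, 24.7 to 41.6 CPM for lymphocytes, 30.0 to 78.5 CPM for fibroblasts and 59.3 to 118 CPM for myeloid cells. Of these lists 5 of 8 endothelial, 7 of 10 lymphocyte, 1 of 10 fibroblast and 7 of 12 myeloid markers stayed under 1 CPM in every library. Acinar markers ran from 0.968 to 1069 CPM.

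Per kilobase of annotated exon, NFKBIA had the highest level of the 10 genes and NFKBIE the lowest. NFKBIA encodes IkB-alpha, an inhibitor that is broken down and made again within the feedback loop, and averaged 23.5 ± 4.09 CPM per kilobase (SD, n = 20). BIRC3 followed with 13.7 ± 5.06, RELA with 10.4 ± 3.09 and REL with 9.26 ± 2.33 CPM per kilobase. BIRC3 and RELA do not separate (BIRC3 was higher in 14 of 20 libraries), nor do RELA and REL (RELA was higher in 10 of 20). NFKB1 averaged 5.54 ± 0.582, NFKBIZ 3.90 ± 0.994 and NFKB2 2.46 ± 0.619 CPM per kilobase. TNFAIP3 with 1.77 ± 0.6005 and RELB with 1.48 ± 0.854 CPM per kilobase again do not separate (13 of 20 libraries). NFKBIE averaged 0.320 ± 0.224 CPM per kilobase and lay below RELB in 20 of 20 libraries. REL shares 5702 exon bases, 43.3% of its exon length, with the noncoding gene AC010733.2 on the same strand, so its level may hold reads of both.

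**Figure D1:**
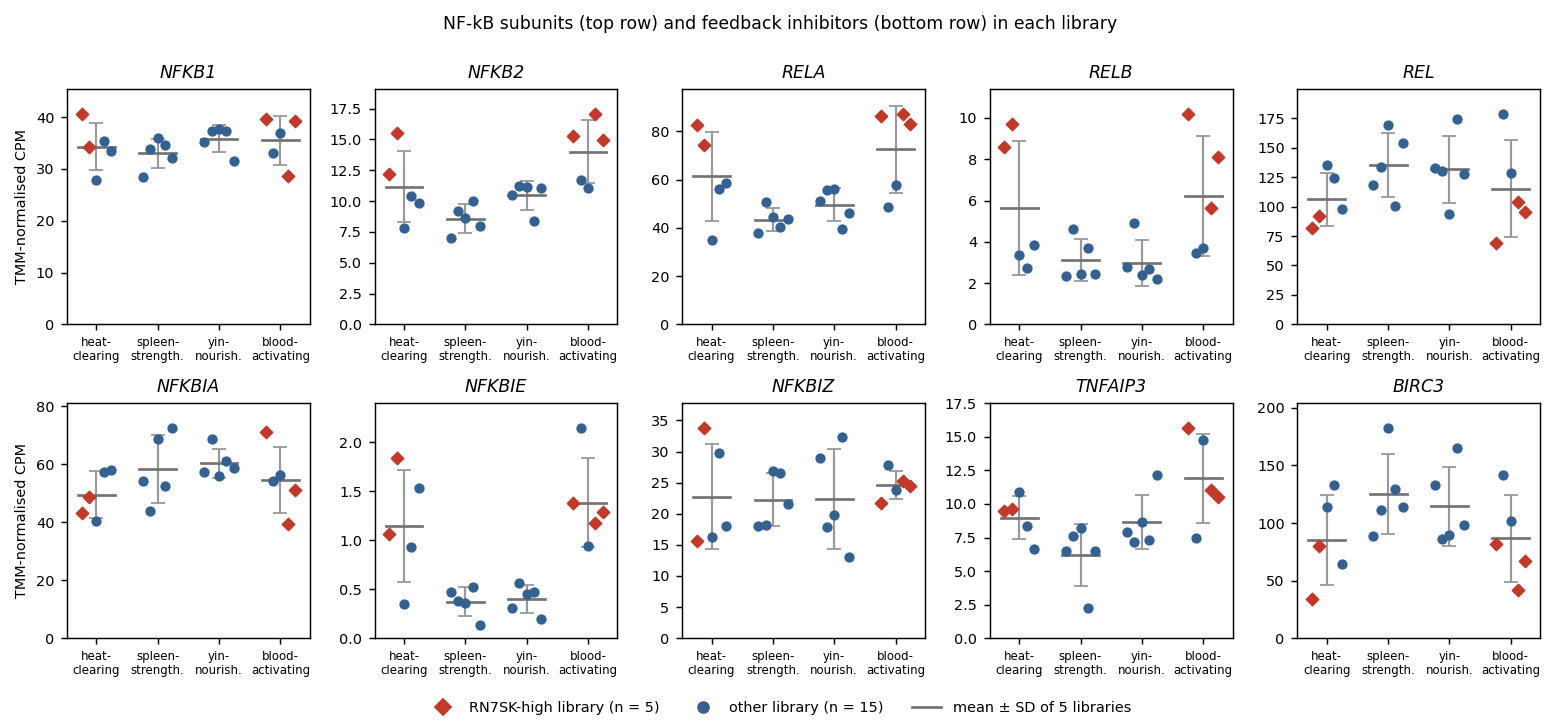
TMM-normalised CPM (y axes, each from 0) of the 10 genes in each library by treatment (x axes), subunits above and feedback genes below; red diamonds are the 5 RN7SK-high libraries, blue circles the other 15, and grey lines with bars the mean ± SD of 5 libraries. The 10 spleen-strengthening and yin-nourishing libraries of NFKBIE sit at 0.133 to 0.567 CPM and the 5 blood-activating ones at 0.937 to 2.14 CPM, while the red diamonds of RELA, RELB and NFKB2 lie above all blue circles.

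Among the subunits, RELA (chr11:65653596-65663094, minus strand, GENCODE 29 on GRCh38) encodes p65, the main transactivating partner of p50. In the order of the replicate numbers it stood at 82.6, 74.2, 35.1, 56.1 and 58.8 CPM in the heat-clearing libraries and at 37.8, 50.7, 44.7, 40.5 and 43.7 CPM in the spleen-strengthening ones. The yin-nourishing libraries held 51.1, 55.5, 56.0, 39.5 and 46.2 CPM and the blood-activating ones 86.5, 48.7, 57.9, 87.1 and 83.0 CPM. The 5 RN7SK-high libraries were the 5 highest of the 20, and the groups overlapped in every pair of treatments. RELA averaged 61.3 ± 18.3, 43.5 ± 4.87, 49.7 ± 6.90 and 72.6 ± 18.0 CPM in the heat-clearing, spleen-strengthening, yin-nourishing and blood-activating treatments (SD, n = 5 each).

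RELB (chr19:45001430-45038198, plus strand) encodes the partner of p52 in the noncanonical branch of the pathway. It stood at 8.60, 9.73, 3.37, 2.72 and 3.82 CPM in the heat-clearing libraries and at 2.33, 4.61, 2.46, 3.68 and 2.46 CPM in the spleen-strengthening ones. In the yin-nourishing libraries RELB stood at 2.77, 4.90, 2.37, 2.66 and 2.18 CPM and in the blood-activating ones at 10.2, 3.47, 3.70, 5.64 and 8.12 CPM. Here too the RN7SK-high libraries were the 5 highest, and the remaining 15 spanned only 2.18 to 4.90 CPM across all 4 treatments.

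NFKB2 (chr10:102394110-102402529, plus strand) encodes p100, the precursor of p52 and itself an inhibitor before processing. It stood at 12.2, 15.5, 7.84, 10.4 and 9.83 CPM in the heat-clearing libraries and at 6.99, 9.16, 8.66, 10.03 and 8.01 CPM in the spleen-strengthening ones. Values of 10.5, 11.3, 11.1, 8.41 and 11.05 CPM were found in the yin-nourishing libraries and of 15.3, 11.7, 11.05, 17.0 and 14.95 CPM in the blood-activating ones. Every spleen-strengthening library lay below every blood-activating library, and the RN7SK-high libraries were again the highest 5 of the 20.

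REL (chr2:60881521-60931610, plus strand) encodes c-Rel, a transactivating subunit best known from lymphocytes, and its order was the opposite. It stood at 81.7, 91.6, 135, 124 and 97.9 CPM in the heat-clearing libraries and at 119, 133, 169, 101 and 154 CPM in the spleen-strengthening ones. REL stood at 133, 130, 93.5, 174 and 127 CPM in the yin-nourishing libraries and, in the blood-activating ones, at 69.2, 178, 129, 104 and 95.6 CPM. The RN7SK-high libraries lay below the others within both treatments that hold them, and the treatments overlapped widely. NFKB1 (chr4:102501329-102617302, plus strand), which encodes p105 and its product p50, varied least of the 5 subunits, from 27.9 to 40.5 CPM over the 20 libraries, and its group means lay between 33.0 and 35.8 CPM.

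Of the feedback genes, NFKBIE (chr6:44258166-44265788, minus strand) encodes IkB-epsilon, an inhibitor that acts later than IkB-alpha. It was the gene whose libraries separated most by treatment. It stood at 1.07, 1.84, 0.352, 0.933 and 1.53 CPM in the heat-clearing libraries and at 0.468, 0.381, 0.356, 0.518 and 0.133 CPM in the spleen-strengthening ones. Yin-nourishing libraries held 0.308, 0.567, 0.447, 0.474 and 0.198 CPM and the blood-activating ones 1.38, 2.14, 0.937, 1.18 and 1.29 CPM. All blood-activating libraries lay above all spleen-strengthening and all yin-nourishing libraries, and heat-clearing replicate 03 alone joined the low side among the heat-clearing ones. These values rest on 11 to 236 counts per library, the fewest of the 10 genes.

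TNFAIP3 (chr6:137867188-137883312, plus strand) encodes A20, a ubiquitin-editing enzyme that shuts off signalling upstream of the inhibitors. It stood at 9.45, 9.64, 10.9, 8.34 and 6.61 CPM in the heat-clearing libraries and at 6.495, 7.60, 8.18, 2.25 and 6.51 CPM in the spleen-strengthening ones. The yin-nourishing libraries held 7.93, 7.19, 8.67, 7.35 and 12.1 CPM and the blood-activating ones 15.7, 7.47, 14.8, 11.03 and 10.6 CPM. Of the blood-activating libraries 4 were above every spleen-strengthening library, and replicate 04 lay within their range.

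BIRC3 (chr11:102317450-102339403, plus strand) encodes cIAP2, a ubiquitin ligase that takes part in receptor signalling and holds down the noncanonical branch. It stood at 34.3, 80.04, 114, 133 and 64.7 CPM in the heat-clearing libraries and at 89.1, 112, 182, 129 and 114 CPM in the spleen-strengthening ones. Levels in the yin-nourishing libraries were 133, 86.0, 89.2, 166 and 97.9 CPM and in the blood-activating ones 81.5, 142, 102, 42.0 and 67.0 CPM. The spread within treatments was wide, with an SD of 34.3 to 39.3 CPM on means of 85.2 to 125 CPM, and the treatments overlapped. NFKBIA (chr14:35401511-35404749, minus strand) ranged from 39.4 to 72.5 CPM and its group means from 49.5 to 60.4 CPM. NFKBIZ (chr3:101827991-101861022, plus strand), which encodes the nuclear protein IkB-zeta that acts mostly as a coactivator, ranged from 13.03 to 33.8 CPM, and its group means lay between 22.3 and 24.6 CPM.

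Whether any of these genes differed among the 4 treatments was tested first, with edgeR over all 24790 rows. None of the 10 passed at an adjusted p of 0.05, and of all rows 0% passed. At an unadjusted p under 0.05 there were 5 of the 10 (NFKBIE, RELA, NFKB2, RELB and TNFAIP3), against 15.4% of all rows. NFKBIE had the smallest adjusted p, 0.172, followed by RELA with 0.172, NFKB2 with 0.177, RELB with 0.204 and TNFAIP3 with 0.229, and the other 5 lay at 0.696 or above. With DESeq2 2 of the 10 passed, RELA with an adjusted p of 0.0231 and NFKB2 with 0.0254, where 9.18% of the rows with an adjusted p passed and NFKBIE was given none. With limma voom 3 passed, RELA (adjusted p 0.0257), NFKBIE (0.0261) and NFKB2 (0.0274), where 8.47% of all rows did. Without the RN7SK-high libraries NFKBIE alone of the 10 had an unadjusted p under 0.05 in the edgeR test (0.0282, adjusted p = 0.989), with unadjusted p of 0.142 for TNFAIP3, 0.160 for NFKB2, 0.319 for RELA and 0.884 for RELB. Since these are whole-sample RNA levels, fewer cells that express a gene and less RNA per cell cannot be told apart.

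Of the 6 pairs, spleen-strengthening against blood-activating had the most rows at an unadjusted p under 0.05 (20.5% of all rows), and 5 of the 10 genes were among them. The mean of NFKBIE was 0.371 ± 0.148 CPM in the spleen-strengthening libraries and 1.38 ± 0.455 CPM in the blood-activating ones (SD, n = 5 each; log2 fold change -1.89, SE 0.479, adjusted p = 0.0835). NFKB2 averaged 8.57 ± 1.15 CPM against 14.0 ± 2.53 CPM in the same order (log2 fold change -0.71, SE 0.176, adjusted p = 0.0835). These are the 2 genes whose libraries did not overlap in this pair, as for 4.44% of all rows. TNFAIP3 averaged 6.21 ± 2.33 CPM in the spleen-strengthening libraries against 11.9 ± 3.34 CPM in the blood-activating ones (log2 fold change -0.94, SE 0.267, adjusted p = 0.0933). The log2 fold change was -0.74 for RELA (SE 0.188, adjusted p = 0.0836) and -1.001 for RELB (SE 0.371, adjusted p = 0.131). BIRC3, REL and NFKBIA had positive values, 0.53, 0.23 and 0.10. The median of the 10 was -0.43, against -0.04 for all rows, and with edgeR 0 of the 10 and 0% of all rows passed.

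How many passed depended on the tool. DESeq2 passed NFKB2, RELA and TNFAIP3, with adjusted p of 0.00648, 0.00968 and 0.0183. It passed 14.1% of the rows with an adjusted p there. NFKBIE was given no adjusted p by DESeq2 in this pair (unadjusted p = 3.79e-05). Limma voom passed 6 of the 10, of which NFKBIE, NFKB2, RELA, RELB and TNFAIP3 were lower and BIRC3 higher in the spleen-strengthening libraries, where it passed 19.8% of rows. With edgeR, leaving out blood-activating replicate 04 let TNFAIP3, RELA, NFKBIE and NFKB2 pass (7.81% of all rows did), and leaving out heat-clearing replicate 03, which is in neither group but shares the fit, let RELA, NFKBIE and NFKB2 pass (1.21%). Without the RN7SK-high libraries, which leaves 5 spleen-strengthening against 2 blood-activating ones, the log2 fold change stood at -2.04 for NFKBIE and -0.83 for TNFAIP3. For TNFAIP3 those 2 stood at 7.47 and 14.8 CPM, and 7.47 CPM lies within the spleen-strengthening range of 2.25 to 8.18 CPM. The log2 fold change shrank to -0.40 for NFKB2, -0.29 for RELA and -0.20 for RELB. It was -0.18 for REL and 0.05 for BIRC3, and the smallest adjusted p was 0.720. Summed myeloid markers, of which 7 of 12 stayed under 1 CPM, did not overlap in this pair. They stood at 59.3 to 84.9 CPM in the spleen-strengthening libraries and 85.8 to 118 CPM in the blood-activating ones. Summed acinar markers overlapped, at 0.968 to 74.4 CPM (median 3.77) against 6.59 to 931 CPM (median 57.4) in the same order. The sums of the remaining marker lists overlapped as well. The part of any of these cell types in the differences was not tested.

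**Figure D2:**
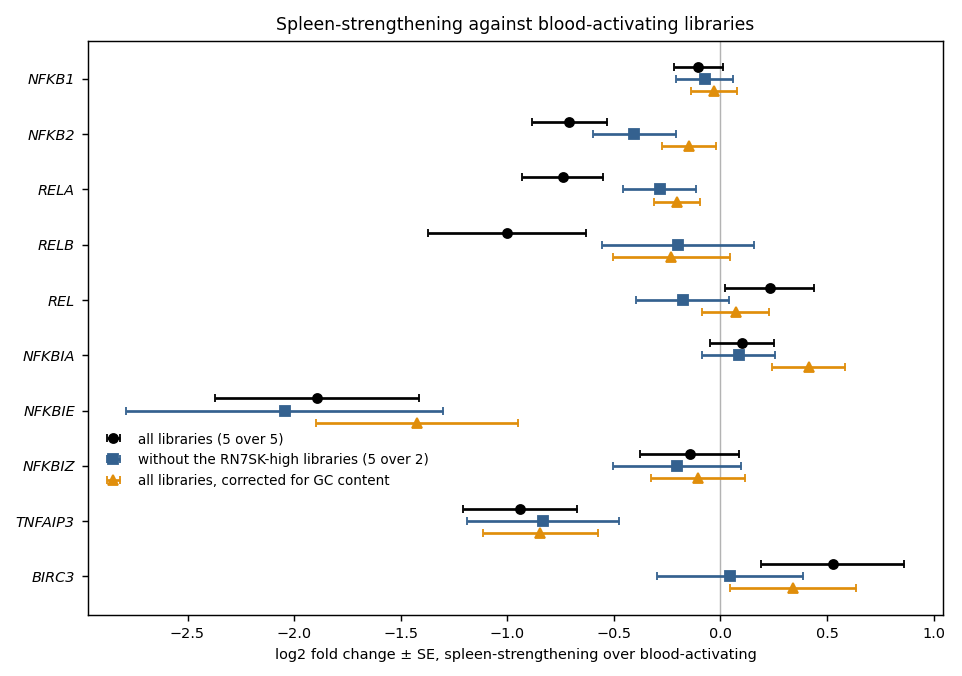
Log2 fold change ± SE of spleen-strengthening over blood-activating libraries (x axis) for the 10 genes (rows), with all libraries (black circles), without the RN7SK-high libraries (blue squares, 5 over 2) and with all libraries after correction for GC content (orange triangles). NFKBIE stays at -1.42 or below and TNFAIP3 at -0.83 or below in all 3 fits. RELA, NFKB2 and RELB lie closer to 0 in the 2 further fits than in the first. Without the RN7SK-high libraries TNFAIP3 rests on 2 blood-activating libraries, at 7.47 and 14.8 CPM.

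In the other pairs edgeR also passed none of the 10, and over all rows it passed 0.00807% for heat-clearing against spleen-strengthening and 0% in each of the rest. At an unadjusted p under 0.05 there were 4 of the 10 for heat-clearing against spleen-strengthening (11.5% of all rows), 2 for heat-clearing against yin-nourishing (10.3%) and 4 for yin-nourishing against blood-activating (18.2%). There were 0 for heat-clearing against blood-activating (1.86% of all rows) and 0 for spleen-strengthening against yin-nourishing (4.72%). Without the RN7SK-high libraries edgeR passed none of the 10 in these 5 pairs either, and 0% of all rows. The median of the 10 then moved from 0.22 to 0.03 for heat-clearing over spleen-strengthening. It moved from 0.04 to -0.10 for heat-clearing over yin-nourishing and from -0.28 to -0.16 for yin-nourishing over blood-activating. DESeq2 passed none of the 10 in these 5 pairs, and of the rows with an adjusted p it passed 7.69% in yin-nourishing against blood-activating and 0.0364 to 0.276% in the rest. In yin-nourishing against blood-activating it gave NFKBIE no adjusted p (unadjusted p = 8.58e-05). NFKBIE averaged 1.14 ± 0.573 CPM in the heat-clearing libraries against 0.371 ± 0.148 CPM in the spleen-strengthening ones (log2 fold change 1.62, SE 0.475, adjusted p = 0.323). Its log2 fold change was 1.52 for heat-clearing over yin-nourishing and -1.79 for yin-nourishing over blood-activating (adjusted p = 0.456 and 0.141), and without the RN7SK-high libraries these values were 1.24 and -1.94. The comparisons share libraries and are not independent of one another. In yin-nourishing against blood-activating NFKBIE was the single gene of the 10 with no overlap, as for 4.12% of all rows, and limma voom passed RELA, NFKBIE, NFKB2 and RELB there, as it did 16.8% of rows. No gene of the 10 separated wholly in heat-clearing against spleen-strengthening (1.26% of all rows), heat-clearing against yin-nourishing (1.16%), heat-clearing against blood-activating (0.488%) or spleen-strengthening against yin-nourishing (0.77%). In heat-clearing against blood-activating all 10 log2 fold changes lay below 0 with edgeR, between -0.41 and -0.03, as did 51.5% of all rows, and with limma voom REL (0.05) and BIRC3 (0.22) lay above 0.

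The RN7SK-high libraries were compared with the others within treatments, by a term for these libraries beside the treatment in the edgeR fit. Only heat-clearing (2 RN7SK-high of 5 libraries) and blood-activating (3 of 5) hold both kinds, so the log2 fold change rests on these treatments. The ranges printed beside it cover all 15 other libraries. Of the 10 genes 5 passed, against 20.2% of all rows, 3 of them higher (10.5% of all rows) and 2 lower (9.69%). The 3 were subunits: the log2 fold change was 1.31 for RELB (SE 0.251, adjusted p = 0.00045), 0.67 for RELA (SE 0.125, adjusted p = 0.000364) and 0.52 for NFKB2 (SE 0.135, adjusted p = 0.00706). RELB spanned 5.64 to 10.2 CPM in the 5 RN7SK-high libraries and 2.18 to 4.90 CPM in the other 15. RELA spanned 74.2 to 87.1 CPM in the RN7SK-high libraries against 35.1 to 58.8 CPM in the others, and NFKB2 12.2 to 17.0 CPM against 6.99 to 11.7 CPM. A full separation of this kind was found for these 3 of the 10 genes and for 12.6% of all rows. REL fell by 0.62 (SE 0.165, adjusted p = 0.0091), with 69.2 to 104 CPM in the RN7SK-high libraries and 93.5 to 178 CPM in the others. BIRC3 fell by 0.90 (SE 0.288, adjusted p = 0.0342), with 34.3 to 81.5 CPM against 64.7 to 182 CPM. RELA, RELB, NFKB2 and REL lay wholly on the same side within the heat-clearing and within the blood-activating treatment, as did 22.4% of all rows. The other genes had log2 fold changes of 0.12 (NFKB1), -0.11 (NFKBIA), 0.18 (NFKBIE), 0.04 (NFKBIZ) and 0.15 (TNFAIP3), none of which passed. The call of BIRC3 held in 12 of the 20 fits that leave out 1 library each (adjusted p 0.0175 to 0.147), and that of REL in 19, lost without blood-activating replicate 04 (adjusted p = 0.0846).

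The difference between the RN7SK-high and the other libraries was itself compared between heat-clearing and blood-activating, and none of the 10 genes passed the edgeR interaction test (adjusted p of 1 for each, 0% of all rows passed, and 0 of the 10 and 1036 of all rows had an unadjusted p under 0.05). DESeq2 and limma voom passed 0 of the 10 as well. The test has 2 RN7SK-high libraries in the heat-clearing treatment and 2 other libraries in the blood-activating one, and does not show that the differences are alike.

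The genes that rose and those that fell in the RN7SK-high libraries also differ in base composition. Transcripts of RELB, NFKB2 and RELA, which rose, have 65.0, 61.5 and 60.2% GC, whereas those of REL and BIRC3, which fell, have 39.5 and 37.4%. NFKBIE, which did not pass, has 61.4%. Over all tested rows the median log2 fold change of the RN7SK-high libraries was 0.63 at a GC content of 60% or more, 0.23 at 50 to 60%, -0.16 at 40 to 50% and -0.34 under 40%. Across the 10 genes the log2 fold change and GC content had a Pearson correlation of 0.888, against 0.298 across all rows with a GC value. These points share the same libraries and the correlation is given as a description. After each library was corrected for its trend with GC content, 1 of the 10 genes passed, against 12.3% of all rows. That gene was NFKBIA, which fell by 0.45 (SE 0.147, adjusted p = 0.0477). RELB then stood at 0.51 (adjusted p = 0.255), RELA at 0.12, NFKB2 at -0.10, REL at -0.34 and BIRC3 at -0.56. NFKBIE with a GC content close to that of RELA and NFKB2 stood at -0.41 after the correction. Summed tumour-epithelium markers were 3291 to 4102 CPM in the RN7SK-high libraries against 2301 to 3331 CPM in the others, and their part in these differences was not tested.

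**Figure D3:**
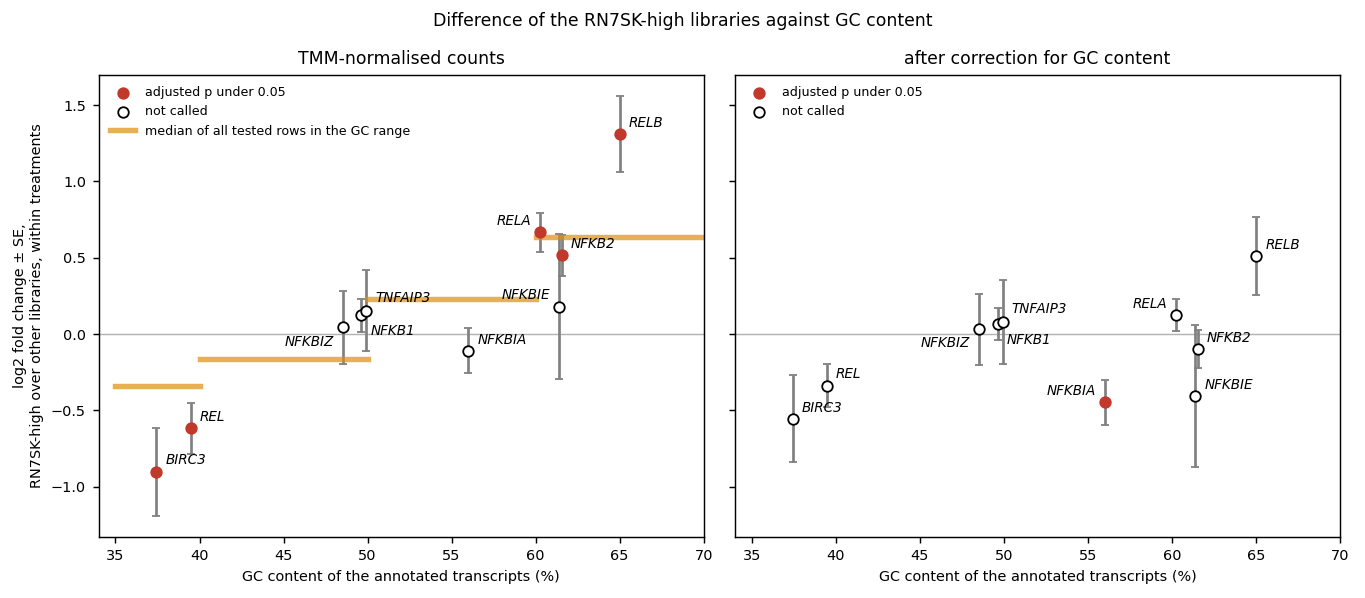
Log2 fold change ± SE of the RN7SK-high over the other libraries (y axis) against the GC content of each gene's annotated transcripts (x axis, %). The difference is taken within treatments and rests on the heat-clearing and blood-activating libraries. It is shown before (left) and after (right) correction for GC content. Filled red points passed an adjusted p of 0.05, and orange lines mark the median of all tested rows in each GC range. On the left the lowest value is that of BIRC3 at -0.90 and 37.4% GC, and the highest that of RELB at 1.31 and 65.0% GC. The climb between them is not steady, with NFKBIA at -0.11 and 56.0% GC and NFKBIE at 0.18 and 61.4% GC. On the right NFKBIA at -0.45 is the filled point.

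The 10 genes did not move as 1 unit across libraries. After the mean of its treatment was subtracted from each log2 CPM, NFKB2 and RELA had a Pearson correlation of 0.833 over the 20 libraries, RELA and RELB of 0.726 and NFKB2 and RELB of 0.709. Over the 15 libraries that are not RN7SK-high these were 0.697, 0.298 and 0.341, each lower than with the RN7SK-high libraries. REL and BIRC3 went together in both sets, at 0.655 over 20 libraries and 0.70 over 15, and so did NFKBIZ and BIRC3, at 0.526 and 0.728. NFKBIE and TNFAIP3 ran against each other, at -0.492 over 20 libraries and -0.598 over 15. RELA and REL had -0.693 over 20 and -0.419 over 15. NFKBIA, the inhibitor with the highest level, had no correlation above 0.398 with any other of the 10 genes over the 20 libraries. All pairs share the same libraries and their composition, and these values carry no test.

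**Figure D4:**
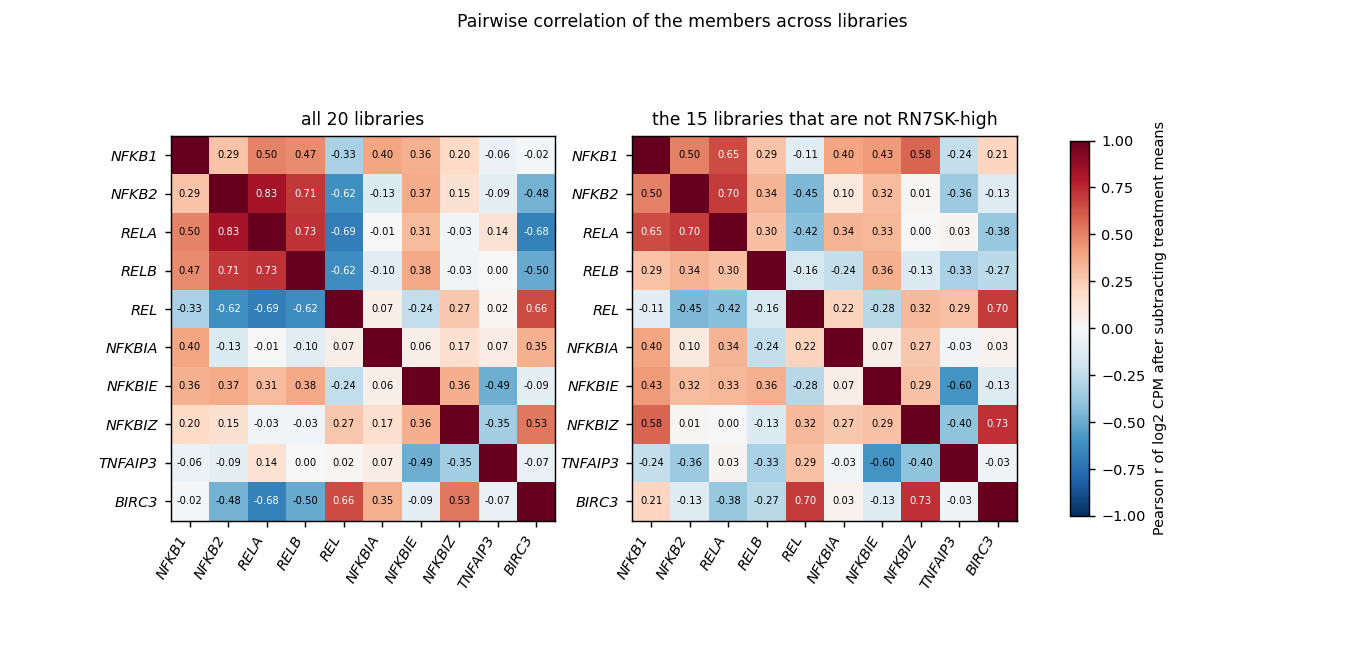
Pearson correlation (colour and printed value) of log2 CPM between the 10 genes, rows and columns, after subtraction of treatment means, over all 20 libraries (left) and over the 15 that are not RN7SK-high (right). The red block of NFKB2, RELA and RELB on the left, 0.71 to 0.83, is paler on the right at 0.30 to 0.70, while REL with BIRC3 keeps 0.66 and 0.70.

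By the same measure, the gene most like each of the 10 was sought among 14119 tested rows with a mean log2 CPM of 0 or more. BIRC3 was most like VGLL1, a cofactor of TEAD transcription factors, with a correlation of 0.944 over 20 libraries and 0.895 over 15. REL was most like TBC1D32 (0.945 and 0.893) and NFKBIZ most like STYK1, which encodes a receptor-like kinase (0.925 and 0.932). RELA was most like INTS5, a subunit of the Integrator complex (0.948 and 0.904), NFKB2 most like C1orf122 (0.914 and 0.893) and RELB most like CCNB1IP1 (0.925 and 0.795). For NFKB1 it was the splicing factor gene PRPF19 (0.839 and 0.723), for NFKBIA EFHC2 (0.775 and 0.729), for TNFAIP3 the pseudogene RPS10P3 (0.792 and 0.809) and for NFKBIE the mitochondrial pyruvate carrier gene MPC2 (0.799 and 0.805). None of these genes is in the pathway lists, and no pair of the 10 was each other's most alike gene.

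The surrounding pathway was read from 5 lists that hold 112 other genes, of which 104 were tested. No list gene passed the edgeR test among the 4 treatments, 27 of the 104 had an unadjusted p under 0.05 (15.4% of all rows), and 0 passed in spleen-strengthening against blood-activating. There 75 of the 104 had a log2 fold change below 0, and 52.9% of all rows did. By role, 28 of 35 target genes lay below 0 (median -0.51), 7 of 8 ligand genes (median -0.70), 14 of 19 other inhibitors (median -0.12), 15 of 22 kinase and activation genes (median -0.13) and 11 of 20 receptor and adaptor genes (median -0.24), beside a median of -0.04 for all rows. Without the RN7SK-high libraries 106 list genes were tested, and 67 of them lay below 0 in this pair, as did 49.97% of all rows. Of the 106 genes 0 passed (smallest adjusted p = 0.664), and 0.0106% of all rows did. The median was then -0.28 for target genes, -0.26 for ligand genes and -0.12 for other inhibitors. It was -0.07 for kinase and activation genes and -0.05 for receptor and adaptor genes, of which 10 of 20 lay below 0. For the RN7SK-high libraries 22 of the 104 list genes rose and 9 fell, beside 10.5% and 9.69% of all rows.

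Among the targets, LIF, a cytokine of the interleukin-6 family, averaged 61.0 ± 6.16 CPM in the spleen-strengthening libraries against 98.9 ± 20.8 CPM in the blood-activating ones (log2 fold change -0.70, SE 0.153, adjusted p = 0.0835). PLAU, the urokinase plasminogen activator, averaged 26.2 ± 2.67 CPM against 61.9 ± 26.5 CPM in the same order (log2 fold change -1.24, adjusted p = 0.0933), and TNFAIP2 averaged 39.9 ± 1.31 CPM against 59.9 ± 12.7 CPM. Without the RN7SK-high libraries the log2 fold change was -0.41 for LIF, -0.38 for PLAU and -0.26 for TNFAIP2. All 3 rose in the RN7SK-high libraries, by 0.51 for LIF, 1.33 for PLAU and 0.56 for TNFAIP2 (adjusted p = 0.000832, 1.16e-06 and 0.000498). BCL2L1 and XIAP are 2 of the survival genes among the targets. BCL2L1, with 56.2% GC, rose in the RN7SK-high libraries by 0.84, and XIAP, an inhibitor of caspases with 40.2% GC, fell by 0.67.

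Among the ligands, IL1B, the secreted interleukin-1 that starts NF-kB signalling, averaged 17.2 ± 4.42 CPM in the spleen-strengthening libraries and 29.1 ± 6.25 CPM in the blood-activating ones (log2 fold change -0.76, adjusted p = 0.0933). Its difference in the RN7SK-high libraries was 0.17 (adjusted p = 0.711). IL1A stood at 41.3 ± 10.1 CPM against 43.6 ± 10.2 CPM in the same order, and IL33 at 1.59 ± 1.27 CPM against 3.68 ± 1.96 CPM. Without the RN7SK-high libraries the log2 fold change of IL1B was -0.51. TNFSF12, the ligand TWEAK, rose by 0.71 in the RN7SK-high libraries (adjusted p = 0.0267), and TNFSF10, the death ligand TRAIL, had -0.55 (adjusted p = 0.0864).

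On the receptor side, TNFRSF12A, the receptor of TWEAK, spanned 26.7 to 56.9 CPM in the RN7SK-high libraries and 10.3 to 19.5 CPM in the others, and rose by 1.19 (SE 0.183, adjusted p = 4.26e-05). MYD88, the adaptor of interleukin-1 and Toll-like receptors, spanned 71.0 to 99.8 CPM against 30.1 to 45.0 CPM and rose by 0.996 (adjusted p = 1.73e-06). IRAK1, the kinase it recruits, rose by 0.75 (adjusted p = 0.000107), whereas IRAK4 stood at -0.14 (adjusted p = 0.588). In the kinase complex, IKBKG, the regulatory subunit NEMO, spanned 7.60 to 9.32 CPM in the RN7SK-high libraries against 1.92 to 4.85 CPM in the others and rose by 1.36 (adjusted p = 0.000343). RBCK1, a part of the linear ubiquitin ligase, rose by 0.80 and TAB2, an adaptor of the kinase TAK1, fell by 0.56. Transcripts of TNFRSF12A, MYD88, IRAK1, IKBKG and RBCK1, which rose, have 63.7, 54.5, 63.8, 61.9 and 63.4% GC, and those of TAB2 41.2%. Full separation, as seen for TNFRSF12A, MYD88 and IKBKG, was found for 12.6% of all rows. The part of GC content in these differences was not tested. CARD10, a scaffold upstream of the IkB kinase, averaged 7.17 ± 1.99 CPM in the spleen-strengthening libraries against 15.7 ± 3.18 CPM in the blood-activating ones (log2 fold change -1.13, adjusted p = 0.0843), and had 0.63 in the RN7SK-high libraries (adjusted p = 0.0854). Without those libraries CARD10 stood at -0.98 between the treatments.

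Among the other inhibitors, TNIP2, a partner of A20, spanned 7.13 to 9.55 CPM in the RN7SK-high libraries against 1.66 to 3.57 CPM in the others and rose by 1.51 (SE 0.230, adjusted p = 3.84e-05), and TNIP1 rose by 0.48 (adjusted p = 0.011). ITCH, a ubiquitin ligase that works with A20, spanned 259 to 325 CPM against 389 to 445 CPM and fell by 0.50 (adjusted p = 1.61e-05). Transcripts of TNIP2 and TNIP1 have 61.1 and 58.1% GC, and those of ITCH 41.0%. Full separation, as seen for TNIP2 and ITCH, was found for 12.6% of all rows. BCL3, a nuclear IkB protein that binds p50 and p52, averaged 15.2 ± 1.93 CPM in the spleen-strengthening libraries against 21.3 ± 1.93 CPM in the blood-activating ones (log2 fold change -0.48, adjusted p = 0.0872) and had 0.17 in the RN7SK-high libraries (adjusted p = 0.416). PDLIM2, which marks nuclear p65 for breakdown, averaged 8.85 ± 1.55 CPM against 13.9 ± 1.52 CPM in the same order (log2 fold change -0.65, adjusted p = 0.0933) and had 0.19 in the RN7SK-high libraries. Without those libraries BCL3 stood at -0.33 and PDLIM2 at -0.60 between the treatments. IL1B, BCL3 and PDLIM2 were thus among the list genes with a small p between treatments and no call for the RN7SK-high libraries, as were NFKBIE and TNFAIP3 of the 10 genes. IRAK4 was another such list gene, but it was higher in the spleen-strengthening than in the blood-activating libraries. Its log2 fold change was 0.36, and 0.48 without the RN7SK-high libraries. Transcripts of BCL3 and PDLIM2 have 65.7 and 62.7% GC.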

How the data were processed

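The deposited table holds counts, whole numbers per gene and library that the authors had not normalised. Per the labels' protocols, ribosomal RNA was removed from total RNA and a strand-keeping library kit was used. HISAT2, StringTie and the build hg38 are named, without versions, per the submitters' processing notes. Which annotation and strand setting were used, and how mouse reads were treated, is not given in the sources. Libraries were grouped by the treatment label, and the replicate number is that of the title. Counts were scaled by TMM and tested in edgeR 4.0.16 (R 4.3.3, robust quasi-likelihood F-tests, default filter with a minimum count of 10, 1 fit of 20 libraries), with Benjamini-Hochberg adjustment over 24790 rows within each comparison and a threshold of 0.05. Alternative tools were limma 3.58.1, as voom with quality weights, and DESeq2 1.42.0. An adjusted p that DESeq2 left out stayed out. The SE printed with an edgeR log2 fold change is the absolute log2 fold change divided by the square root of F from the same test. RN7SK-high means RN7SK over 4% of counts. The GC correction took each library's lowess trend (span 0.5) of log2 CPM (prior count 2, relative to each gene's mean) over transcript GC content into the fit as an offset. Gene positions, exon lengths and GC content came from GENCODE release 29, and promoters from RefSeq. The edgeR steps were tested on simulated data. The 10 genes, the lists, the markers and the RN7SK split were chosen with earlier results of these data known. Named besides the 10 genes are, from each list, up to 3 genes with the smallest p among the 4 treatments and up to 3 for the RN7SK-high libraries (mean log2 CPM of 0 or more), the most alike gene of each of the 10, and RN7SK; KRT8 and KRT19 stand as examples of markers.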

Additional observations from a re-analysis of the deposited data

Results flagged for a closer look

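Within-treatment outliers were looked for in the 10 genes, with 40 groups of 5 libraries, by the gap of an extreme library to its nearest neighbour as a share of the range (limit 0.71 for 5 libraries). About 1 in 20 groups passes by chance. NFKB2 in yin-nourishing replicate 07 stood at 8.41 CPM below the other yin-nourishing libraries at 10.5 to 11.3 CPM (gap share 0.731). RELB in yin-nourishing replicate 04 stood at 4.90 CPM above the others at 2.18 to 2.77 CPM (gap share 0.782). TNFAIP3 in spleen-strengthening replicate 07 stood at 2.25 CPM below the others at 6.495 to 8.18 CPM (gap share 0.716). That library also had the highest RN7SK share outside the RN7SK-high libraries, 3.02%, and whether this bears on its TNFAIP3 level was not tested.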

How the results depend on the processing

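The test among the 4 treatments passed 0 of the 10 genes with edgeR, 2 with DESeq2 and 3 with limma voom, and 0 to 2 when 1 library was left out at a time. The 2 came without heat-clearing replicate 03 (NFKBIE and RELA, smallest adjusted p 0.044), where 1.47% of all rows passed. Over the 6 pairs the calls numbered 0 with edgeR, 3 with DESeq2, 10 with limma voom and 0 to 4 with 1 library left out, namely 3 without heat-clearing replicate 03 and 4 without blood-activating replicate 04. DESeq2 gave NFKBIE no adjusted p in spleen-strengthening and in yin-nourishing against blood-activating. The RN7SK-high term passed 5 genes, 3 with no filter on low counts (8.94% of all rows, against 20.2% with it) and 1 with the GC correction (12.3%). With 1 library left out it passed 3 to 5. The 3 came without blood-activating replicate 04, where 15.8% of all rows passed. The replicate number as a block left 2, where 5.33% of all rows passed. What the title number marks is not given in the sources. Of 12 same-number pairs 1 had a correlation of deviations over 0.1 (range -0.045 to 0.17). Of 18 libraries 2 correlated best with their own number. These values do not show whether the number marks a pairing. The interaction passed 0 throughout, and the other alternatives kept these counts within 1.5 times. In the RN7SK-high term and in spleen-strengthening over blood-activating, single genes turned sign in 13 cases, each with no call under that alternative. In the other 5 pairs, where edgeR passed none, 81 of 1600 values turned sign. For the RN7SK-high term they were NFKB2 (-0.10) and NFKBIE (-0.41) with the GC correction, NFKBIE without heat-clearing replicate 02 or 03 (with 1 library left out it ranged from -0.066 to 0.59), NFKBIZ with upper quartile scaling (-0.022), with limma voom (-0.046) and without heat-clearing replicate 02 or 03 (range -0.22 to 0.21), and TNFAIP3 with the title letter as covariate (-0.078) or a limit of 3% RN7SK (-0.20). For spleen-strengthening over blood-activating they were REL without the RN7SK-high libraries (-0.18) or with a term for them (-0.091), and NFKBIA without blood-activating replicate 08 (range -0.013 to 0.20 with 1 library left out). The cause was not tested. Of the other single-gene values 881 kept direction and call, 24 gained the call and 20 lost it. NFKBIE, with 11 to 236 counts per library, has the least depth. Differences between animals, cultures and libraries cannot be told apart.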
